A study of Mus musculus with 8 samples.

Results

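The cell division genes examined here are 56 genes that cells transcribe when they copy their DNA and divide, of which 21 act in S phase and 35 in mitosis. They were chosen by name and by their role, with earlier results of these data known. Each gene was read from the brightest of the probe sets that name it alone, by the mean of the 8 arrays. Of them 50 were measured, 19 S phase genes and 31 mitosis genes, among 18820 genes in all. Ccne2, Tyms, Ccnb1, Ube2c, Nusap1 and Kif20a had no probe set of their own and were not analysed here.

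RNA came from white adipose tissue of 8 male mice on the C57BL/6 background, a mix of C57BL/6N and C57BL/6J, with 1 array per mouse. Their food for 5 weeks was D12492, a high fat diet of Research Diets. The control group was 4 wildtype (WT) mice, and the other group was 4 mice called Sel1l-/-, made by crossing Sel1L-flox/flox mice with mice whose Cre is driven by the adiponectin promoter. That promoter is active in adipocytes, so the other cells of the tissue were not targeted. Sel1l encodes a partner of a ubiquitin ligase that clears misfolded proteins from the endoplasmic reticulum. The sources used here give neither the fat depot, nor the age of the mice, nor whether the WT mice carried floxed alleles or Cre. In whole tissue, a change in the number of dividing cells and a change in the RNA per dividing cell cannot be told apart.

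A cell that commits to division first turns on a set of genes through E2F transcription factors, among them the helicase and enzymes that replicate DNA. Later, a second set is turned on for mitosis, through promoter elements called the CCAAT box and the cell cycle genes homology region (CHR), and its products build the spindle, hold and sort the chromosomes and cut the cell apart. Mature adipocytes do not divide, while precursor cells, endothelial cells and macrophages of obese fat can. Which cells of the tissue held the RNA of these genes was not measured.

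The letters of these elements are shown for 6 members because they can be read independently of the arrays. CHR and E2F letters differed in share between S phase and mitosis genes, while the CCAAT box was common in both. Stretches are written 5′ to 3′ on the gene's strand, from RefSeq promoter windows of GRCm38.p6. Capitals mark the motifs searched on both strands. These were the CHR as TTTGAA or TTCGAA, the CCAAT box as CCAAT, and E2F letters as TTTCCCGC, TTTCGCGC, TTTGCCGC or TTTGGCGC, or the same without their first T, so that the shorter form overlaps the longer one. The stretches are parts of longer windows, and matches outside them are not shown. Left out are, among others, shorter E2F letters of Mki67 (base -67) and Cdk1 (base -178) and CCAAT boxes of Mcm5 (bases -22 and 7). Mcm5 and Mcm6, subunits of the replicative helicase, stand for S phase. Cdk1 (the mitotic kinase), Mki67 (the coat of mitotic chromosomes), Kif11 (a spindle motor) and Anln (a scaffold of the cleavage furrow) stand for mitosis.
Mcm6, chr1:128359706-128359825, minus strand, the 120 bases before the start: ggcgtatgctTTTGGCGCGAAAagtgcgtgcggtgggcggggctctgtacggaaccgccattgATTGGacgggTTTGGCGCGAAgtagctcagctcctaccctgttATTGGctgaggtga
Mcm5, chr8:75109352-75109448, plus strand, the 97 bases that end at base -61: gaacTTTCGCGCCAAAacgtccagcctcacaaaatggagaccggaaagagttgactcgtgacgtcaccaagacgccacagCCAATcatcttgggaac
Cdk1, chr10:69352913-69353052, minus strand, the 140 bases before the start: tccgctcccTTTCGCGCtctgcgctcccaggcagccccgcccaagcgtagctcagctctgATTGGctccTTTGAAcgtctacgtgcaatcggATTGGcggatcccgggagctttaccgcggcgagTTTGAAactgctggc
Mki67, chr7:135716460-135716579, minus strand, bases -200 to -81: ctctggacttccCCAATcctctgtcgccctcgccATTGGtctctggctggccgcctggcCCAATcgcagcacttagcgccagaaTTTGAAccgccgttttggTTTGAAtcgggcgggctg
Kif11, chr19:37376322-37376381, plus strand, the 60 bases before the start: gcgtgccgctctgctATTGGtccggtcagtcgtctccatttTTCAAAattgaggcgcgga
Anln, chr9:22389165-22389194, minus strand, bases 13 to 42 after the start: gcgctgaaaTTCAAAtTTTGAAcggccgtg

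Promoter windows of equal length around the annotated start were found for 17 of the 19 measured S phase genes and 27 of the 31 measured mitosis genes. Gins1, Mcm4, Aurkb, Ccna2, Pbk and Tpx2 were not matched. The CHR letters stood in 24 of 29 mitosis windows (82.8%), among them those of Bub1, Plk1, Top2a and Ccnb2, against 4 of 19 S phase windows (21.1%) and 19.2% of all 32851 windows. A CHR and a CCAAT box together stood in 21 mitosis windows (72.4%), 4 S phase windows (21.1%) and 7.52% of all windows. The 8-letter E2F forms stood in 7 S phase windows (36.8%), those of Cdc6, Mcm3, Mcm5, Mcm6, Mcm7, Pola1 and Uhrf1. They stood in 3 mitosis windows (10.3%), those of Cdk1, Kif15 and Ncapg, and in 2.26% of all windows. The shorter E2F forms were in 68.4% of S phase, 24.1% of mitosis and 9.57% of all windows, and the CCAAT box alone in 73.7%, 79.3% and 37.4%. A match gives letters and not a site in use.

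In the whole data set, Sel1l itself ran from 10.48 to 10.65 on the log2 scale in WT and from 9.56 to 10.07 in Sel1l-/- arrays, a difference of -0.79 with an adjusted p of 0.0109. Differences throughout are Sel1l-/- minus WT on the log2 scale. They were tested with limma, p-values were adjusted over the whole table, and a gene passed when its adjusted p was under 0.05. Array medians lay between 6.05 and 6.08 in WT and between 6.10 and 6.14 in Sel1l-/-, and no arrays held identical values. In the table as a whole 195 genes passed upward and 129 downward, or 119 and 154 after each array was centred on its median. The defining markers of adipocytes were present, with list means of 11.93 to 12.57. Each mouse has its own code in the labels, and 4 arrays per group limit the precision.

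All 50 measured division genes had a higher mean in Sel1l-/- than in WT fat, while 48.8% of all genes did. Their differences ran from 0.05 to 0.82, with a median of 0.43 against 0.00 over all genes. Only 1 of the 50 passed the threshold, Anln, a cytokinesis gene, which rose 1.62-fold. Of all genes 1.04% passed upward, 0.685% downward and 1.72% in either direction. An unadjusted p under 0.05 was reached upward by 10 members, where 7.15% of all genes reached it, and downward by 0 members, where 7.85% did. The groups overlapped for 48 of the 50 genes. In the other 2, Anln and Chek1, each Sel1l-/- array was above every WT array, as in 5.22% of all genes. The shared direction of the 50 genes does not make 50 separate observations, since they were read on the same 8 arrays and moved together from mouse to mouse. Nor were the genes chosen blind to earlier results of these data.

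**Figure D1:**
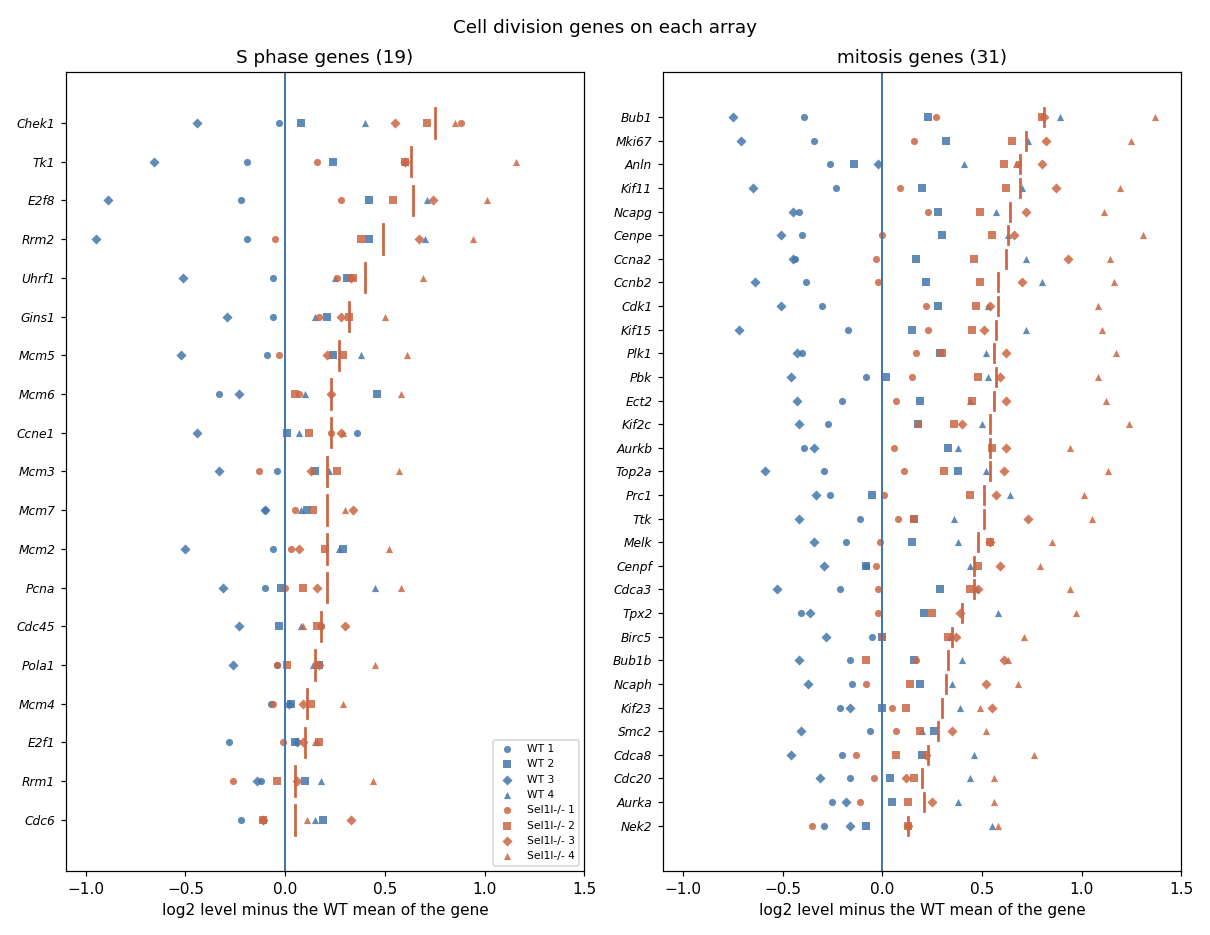
Log2 level of each of the 19 S phase genes (left) and 31 mitosis genes (right) minus the WT mean of the gene, with 1 point per mouse (WT blue, Sel1l-/- orange, 1 marker shape per replicate number). The vertical line marks the WT mean and the short orange bars the Sel1l-/- means, all of them to the right of it, while the points of the groups overlap for each gene but Anln and Chek1.

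The S phase genes differed by a median of 0.21 and a mean of 0.29, from 0.05 (Cdc6 and Rrm1) to 0.75 (Chek1). None of the 19 passed the threshold with limma, and 3 had an unadjusted p under 0.05, Chek1, Gins1 and Mcm7. Their mean level was 7.25, 7.52, 6.98 and 7.60 in WT 1 to 4 (7.34 ± 0.28, SD, n = 4). It was 7.42, 7.57, 7.63 and 7.87 in Sel1l-/- 1 to 4 (7.62 ± 0.19, SD, n = 4). WT 4 lay above Sel1l-/- 1 and 2, so the groups overlapped.

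Chek1, the kinase that halts the cycle when replication stalls, was at 6.00, 6.11, 5.59 and 6.43 in WT. In Sel1l-/- it was at 6.91, 6.74, 6.58 and 6.88, so the lowest Sel1l-/- array was above the highest WT array. The difference was 0.75 (SE 0.17, 95% interval 0.37 to 1.12), or 1.68-fold, with an adjusted p of 0.0697. With the replicate number as a block, a pairing that no label states, Chek1 passed the threshold at an adjusted p of 0.0254. In that fit 3.85% of all genes passed, 1.90% upward and 1.95% downward. Chek1 also passed when WT 4 was left out (0.0300) and with array weights (0.0394). With any other single array left out, the adjusted p was 0.0965 to 0.169. It was 0.175 in the ordinary test. The labels give each mouse a code with a letter and a number of unstated meaning. With the code number as a block the adjusted p was 0.177. With the code letter as a block, which rests on WT 4 against Sel1l-/- 1 and 2, the difference was 0.39.

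Uhrf1, which copies DNA methylation onto the new strand, was at 6.37, 6.74, 5.92 and 6.68 in WT and at 6.69, 6.77, 6.76 and 7.12 in Sel1l-/-. WT 3 stood low and Sel1l-/- 4 high, and the other 6 arrays lay between 6.37 and 6.77. The difference was 0.41 (SE 0.18), with an adjusted p of 0.342.

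E2f8, an E2F repressor that is itself switched on in S phase, was at 5.77, 6.41, 5.10 and 6.70 in WT and at 6.27, 6.53, 6.73 and 7.0 in Sel1l-/-. Its WT arrays spanned more than the difference of 0.63 (SE 0.33, adjusted p 0.421). With Ccne1 (0.23), the cyclin that opens S phase, and E2f1 (0.10), an E2F activator, it made up the genes of the entry into S phase.

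Among the genes of the replicative helicase and its loading, the median difference of 9 genes was 0.21. Gins1, a subunit of the active helicase, was at 6.29, 6.56, 6.06 and 6.50 in WT and at 6.52, 6.67, 6.63 and 6.85 in Sel1l-/-. Only Sel1l-/- 1 lay within the WT range. The difference was 0.32 (SE 0.12, adjusted p 0.264). Mcm7 was at 8.19, 8.40, 8.19 and 8.37 in WT and at 8.34, 8.43, 8.63 and 8.59 in Sel1l-/-, a difference of 0.21 (SE 0.09, adjusted p 0.300). Here too Sel1l-/- 1 was the sole array inside the WT range. Mcm2 was at 7.41, 7.76, 6.97 and 7.74 in WT and at 7.50, 7.67, 7.54 and 7.99 in Sel1l-/-. The difference of 0.21 had a 95% interval of -0.22 to 0.63, and without WT 3 and Sel1l-/- 4 it was -0.06. Those were its lowest and highest arrays, so leaving them out had to lower the difference. The remaining subunits and loaders, Mcm3, Mcm4, Mcm5, Mcm6, Cdc6 and Cdc45, differed by 0.05 to 0.27.

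Of the genes that supply nucleotides, Tk1, the salvage kinase for thymidine, was at 6.73, 7.16, 6.26 and 7.52 in WT and at 7.08, 7.52, 7.52 and 8.08 in Sel1l-/-. The difference was 0.63 (SE 0.29, adjusted p 0.350), and its other probe set gave 0.69. WT 4 matched the middle Sel1l-/- arrays, and Sel1l-/- 1 lay below WT 2. Rrm2 and Rrm1, the subunits of ribonucleotide reductase, differed by 0.49 and 0.05. Pcna, the sliding clamp of DNA polymerase, was at 10.34, 10.42, 10.13 and 10.89 in WT and at 10.44, 10.53, 10.60 and 11.02 in Sel1l-/-. WT 4 and Sel1l-/- 4 were the high arrays of their groups, and the difference of 0.20 had a 95% interval of -0.20 to 0.61. Without WT 3 and Sel1l-/- 4, again the lowest and the highest array, it was -0.03. Pola1, the polymerase that starts each new strand, differed by 0.14.

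The mitosis genes differed by a median of 0.54 and a mean of 0.48, from 0.12 (Nek2) to 0.82 (Bub1). With limma 1 of 31 passed the threshold, and 7 had an unadjusted p under 0.05. Their mean level was 6.26, 6.67, 6.09 and 7.03 in WT 1 to 4 (6.51 ± 0.42, SD, n = 4). It was 6.58, 6.88, 7.07 and 7.45 in Sel1l-/- 1 to 4 (7.0 ± 0.36, SD, n = 4). WT 4 lay above Sel1l-/- 1 and 2 and close to Sel1l-/- 3.

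The cytokinesis genes were Anln and Ect2. Anln was at 7.46, 7.58, 7.70 and 8.13 in WT (7.72 ± 0.29, SD, n = 4) and at 8.40, 8.33, 8.52 and 8.39 in Sel1l-/- (8.41 ± 0.08, SD, n = 4). WT 1 was its lowest WT array and Sel1l-/- 3 its highest Sel1l-/- array, as for Kif23, a spindle motor. The difference was 0.69 (SE 0.13, 95% interval 0.39 to 1.0), with an adjusted p of 0.0448. The call was lost after centring (0.0627) and in 7 of 8 fits that left out 1 array, where the adjusted p was 0.0766 to 0.130, and was kept without WT 4 (0.00768). It was also lost in the ordinary test (0.129) and with the code number of the mice as a block (difference 0.73, adjusted p 0.151). With the code letter as a block, which rests on WT 4 against Sel1l-/- 1 and 2, the difference fell to 0.24. Ect2, which activates the contractile ring, differed by 0.56 with an adjusted p of 0.336.

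The mitotic cyclins and their kinase differed by a median of 0.58. Cdk1, which drives entry into mitosis, was at 6.91, 7.49, 6.70 and 7.74 in WT and at 7.43, 7.68, 7.75 and 8.29 in Sel1l-/-. Among the Sel1l-/- arrays only the third and the fourth reached above the highest WT array. The difference was 0.58 (SE 0.26, 95% interval -0.01 to 1.17), or 1.5-fold, with an adjusted p of 0.339. Ccna2 and Ccnb2, the cyclins that switch it on, differed by 0.62 and 0.58.

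The 9 mitotic and checkpoint kinases differed by a median of 0.51. Aurkb, the kinase that corrects faulty spindle attachments, was at 7.27, 7.99, 7.32 and 8.04 in WT and at 7.72, 8.21, 8.28 and 8.60 in Sel1l-/-. WT 1 and WT 3 were the low pair of the WT group, and Sel1l-/- 1 fell between them and the other WT arrays. The difference was 0.55 (SE 0.23, adjusted p 0.325). Melk, another kinase of dividing cells, was at 5.52, 5.85, 5.36 and 6.08 in WT and at 5.69, 6.24, 6.24 and 6.55 in Sel1l-/-, a difference of 0.48 (SE 0.21, adjusted p 0.328). Pbk, a kinase found in dividing cells, was at 5.11, 5.21, 4.73 and 5.72 in WT and at 5.34, 5.67, 5.78 and 6.27 in Sel1l-/-. In both, WT 4 was above the lowest Sel1l-/- array. The difference of Pbk was 0.57 (SE 0.24, adjusted p 0.313), and that of its other probe set was 0.31. Bub1, a kinase of the spindle checkpoint named because it had the largest difference of the 50 genes, was chosen after its values were seen. Its WT arrays ran from 5.24 to 6.88 and its Sel1l-/- arrays from 6.26 to 7.36, and the difference of 0.82 had an adjusted p of 0.333. Plk1, Ttk, Bub1b, Aurka and Nek2 differed by 0.12 to 0.57.

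At the kinetochore, which joins chromosomes to the spindle, Cenpf was at 5.32, 5.32, 5.11 and 5.84 in WT and at 5.37, 5.88, 5.99 and 6.19 in Sel1l-/-. Sel1l-/- 1 lay close to the low WT arrays, and WT 4 just under Sel1l-/- 2. The difference was 0.46 (SE 0.20, adjusted p 0.329), and that of Cenpe, a kinetochore motor, was 0.63. The 6 spindle genes, Kif11, Kif15, Kif2c, Prc1, Tpx2 and Kif23, differed by 0.30 to 0.69 with a median of 0.53. Kif11 gave 0.69 on the probe set used and 0.31 on its other one. Prc1 gave 0.51, and -0.06 on a dim probe set with means of 3.38 and 3.32. The chromosomal passenger genes Birc5 and Cdca8 differed by 0.35 and 0.23, and Cdc20 and Cdca3, which act with ubiquitin ligases, by 0.20 and 0.46.

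The 5 genes of chromosome structure differed by a median of 0.54. Mki67, the common marker of cycling cells, was at 7.49, 8.15, 7.12 and 8.56 in WT (7.83 ± 0.65, SD, n = 4) and at 7.99, 8.48, 8.65 and 9.08 in Sel1l-/- (8.55 ± 0.45, SD, n = 4). WT 4 was above Sel1l-/- 1 and 2. The difference was 0.72 (SE 0.33, 95% interval -0.04 to 1.48), or 1.65-fold, with an adjusted p of 0.362. Top2a, which untangles sister DNA, was at 6.88, 7.55, 6.58 and 7.69 in WT and at 7.28, 7.48, 7.78 and 8.30 in Sel1l-/-. Here both WT 2 and WT 4 were above Sel1l-/- 1 and 2. The difference was 0.54 (SE 0.29, 95% interval -0.13 to 1.20), and the 2 dim probe sets of the gene gave -0.18 and 0.08. Ncapg, a condensin subunit, was at 5.02, 5.72, 4.99 and 6.01 in WT and at 5.67, 5.93, 6.16 and 6.55 in Sel1l-/-, a difference of 0.64 (SE 0.27, adjusted p 0.308). Ncaph and Smc2, the other condensin genes, differed by 0.31 and 0.28.

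**Figure D2:**
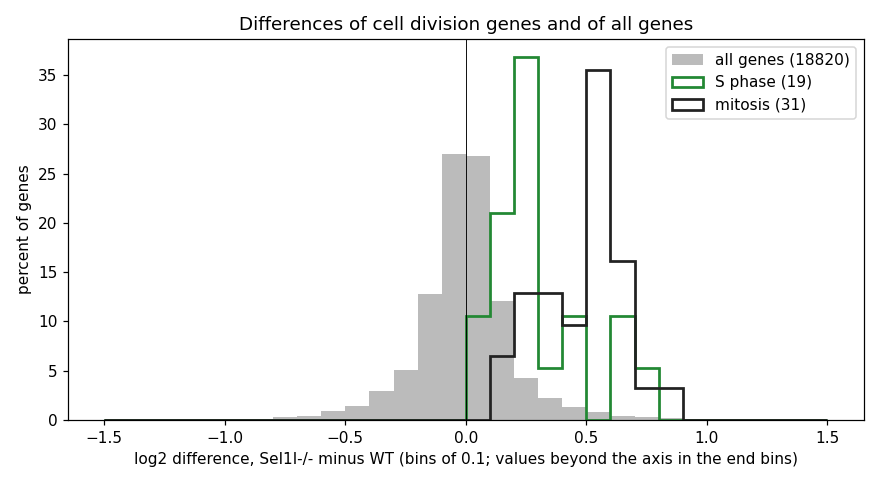
Percent of genes by log2 difference, Sel1l-/- minus WT, in bins of equal width, for all 18820 genes (grey), the 19 S phase genes (green line) and the 31 mitosis genes (black line). All genes centre near 0, and both lines lie wholly above 0, the mitosis genes with a median of 0.54 and the S phase genes with one of 0.21.

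The spread within a group was wide and shared. The median SD within groups was 0.41 for a mitosis gene and 0.27 for an S phase gene, against 0.13 over all genes. Among WT mice, the mean of the mitosis genes ranged over 1.92-fold, and among Sel1l-/- mice over 1.83-fold, while the groups differed by 1.40-fold. For the S phase genes the ranges were 1.54-fold and 1.36-fold, and the difference was 1.22-fold. Differences between genotypes were smaller than the pooled SD of the gene in 11 of 19 S phase genes and 7 of 31 mitosis genes, where they were smaller in 65.7% of all genes. The S phase share was near that of all genes, and the mitosis share was below it.

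The same mice stood high or low on most members. WT 3 was the lowest WT array for 40 of the 50 genes, where 27.8% of all genes had it lowest, and WT 4 the highest for 39 (27.2% of all genes). Sel1l-/- 1 was the lowest Sel1l-/- array for 43 genes (27.9% of all genes) and Sel1l-/- 4 the highest for 43 (27.1%). WT 3 was the lowest and Sel1l-/- 4 the highest of all 8 arrays for 35 genes (5.73% of all genes). WT 4 was above Sel1l-/- 1 for 44 genes, 14 S phase and 30 mitosis genes (49.0% of all genes). These counts describe a pattern seen in the values, and the genes are not independent.

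**Figure D3:**
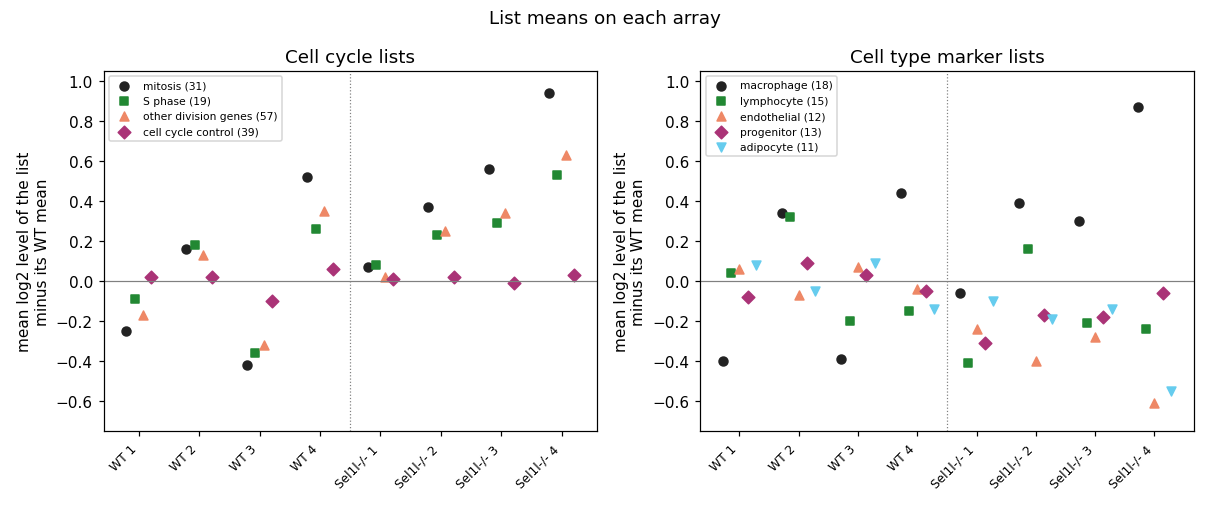
Mean log2 level of each gene list on each array minus its WT mean, with 1 point per mouse and list, for cell cycle lists (left) and cell type markers (right). The mitosis, S phase and other division genes are lowest in WT 3 and highest in Sel1l-/- 4, and the macrophage markers are also highest in Sel1l-/- 4.

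The difference depended on which mice were set against each other. The mouse codes hold a letter, whose meaning the sources used here do not give, and the letter F alone holds mice of both genotypes, WT 4 and Sel1l-/- 1 and 2. Within it the mean difference was -0.11 for S phase and -0.29 for mitosis genes, and 42 of 50 genes were below 0, where 47.0% of all genes were. Anln (0.24) and Chek1 (0.39) stayed above 0 there, as did Ccne1, Mcm4, Mcm7, Cdc45, Gins1 and Uhrf1. Only 1 WT mouse entered that comparison, and a fit with the letter as a block gives the same values. Within the code numbers 5, 7 and 9, the mitosis genes differed by a mean of 0.42, 0.35 and 0.80 and the S phase genes by 0.21, 0.13 and 0.59. Number 5 holds WT 1 and 4 and Sel1l-/- 3, and number 7 holds WT 2 and Sel1l-/- 1 and 4. Number 9, with the largest differences, sets 1 WT mouse (WT 3) against 1 Sel1l-/- mouse (Sel1l-/- 2).

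Set against the mouse of its own replicate number, each Sel1l-/- mouse was higher by the mean of the mitosis genes, by 0.32, 0.21, 0.98 and 0.43. Of the 31 mitosis genes 30, 26, 31 and 31 were above 0 in the 4 pairs, and of the 19 S phase genes 14, 13, 19 and 17, where 46.4%, 53.1%, 49.4% and 49.0% of all genes were. The S phase means were 0.17, 0.05, 0.66 and 0.27. Without WT 3 and Sel1l-/- 4 the mean difference of the mitosis genes was 0.19, with 28 of 31 above 0. That of the S phase genes was 0.08, with 12 of 19 above 0. WT 3 had the lowest and Sel1l-/- 4 the highest mean of both lists. Leaving them out therefore had to lower the mean difference. In that fit, chosen after seeing the data, 49.1% of all genes were above 0 and 0.972% passed the threshold, none of them a member. After centring of the arrays, all 50 genes stayed above 0, where 35.8% of all genes were, with means of 0.44 for mitosis and 0.24 for S phase genes.

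**Figure D4:**
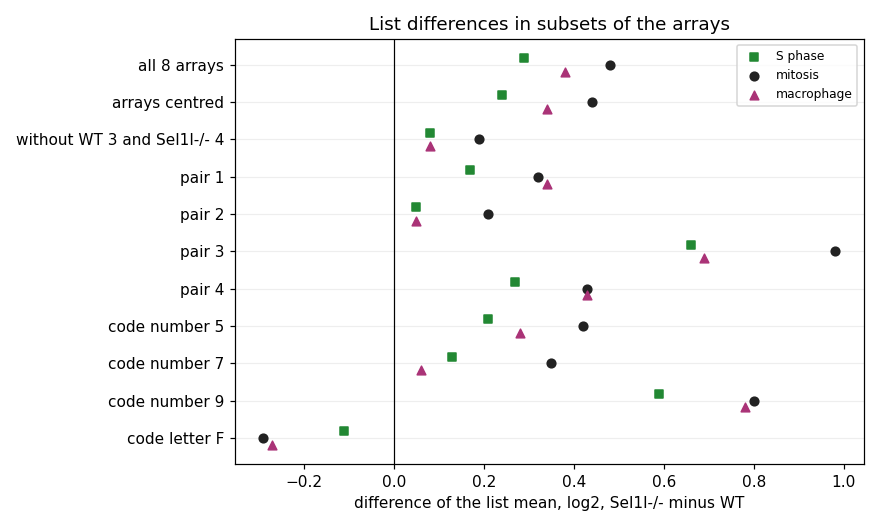
Mean log2 difference, Sel1l-/- minus WT, of the S phase genes, mitosis genes and macrophage markers over all arrays and within subsets of the arrays, as points. Within the code letter F the points lie below 0, and in the other subsets they lie above 0.

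A wider list of 62 other division genes, covering replication, repair at the fork, centromere and spindle, took the same course. Of its 57 measured genes 55 had a higher mean in Sel1l-/-, with a median difference of 0.36, and 0 passed the threshold in limma. An unadjusted p under 0.05 was reached by 9 upward and 1 downward (7.15% and 7.85% of all genes). In 2 of the 57 (3.51%) each Sel1l-/- array was above every WT array, as in 5.22% of all genes. Clspn, which hands the stalled fork signal to Chek1, was at 4.98, 5.20, 4.84 and 5.30 in WT and at 5.44, 5.51, 5.54 and 5.78 in Sel1l-/-, without overlap. Its difference was 0.49, with an adjusted p of 0.0889, and of 0.0324 with the replicate block. Gmnn, the inhibitor of origin licensing, differed by 0.36 (adjusted p 0.159). Ndc80, which grips spindle fibres at the kinetochore, differed by 0.49, with an adjusted p of 0.206, and of 0.0486 with the replicate block.

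The 39 measured genes of a separate list of cell cycle control genes were more balanced, with 23 above 0 (59.0%, against 48.8% of all genes) and a median of 0.01. In limma 0 of them passed the threshold, and an unadjusted p under 0.05 was reached by 2 upward and 3 downward (7.15% and 7.85% of all genes). In 1 of the 39 (2.56%) each Sel1l-/- array was above every WT array, and in 2 below (5.22% and 5.07% of all genes). Cdk6, a kinase of the G1 phase, was at 8.42, 8.98, 8.65 and 9.05 in WT and at 9.32, 9.56, 9.50 and 9.95 in Sel1l-/-, without overlap. The difference was 0.81, with an adjusted p of 0.0616, and of 0.00987 with the replicate block. Ccnd3, a cyclin partner of Cdk6 that is abundant in fat, was at 10.50, 10.38, 10.46 and 10.31 in WT and at 10.13, 10.00, 10.03 and 9.76 in Sel1l-/-, below every WT array as were 5.07% of all genes. The difference was -0.43, with an adjusted p of 0.0575, and of 0.0267 with the replicate block. Cdkn2c, an inhibitor of Cdk4 and Cdk6, was at 11.30, 11.01, 10.83 and 10.80 in WT and at 10.74, 10.52, 10.42 and 10.09 in Sel1l-/-, without overlap. Its difference was -0.54, with an adjusted p of 0.141, and of 0.0221 with the replicate block. With the code letter as a block, which rests on WT 4 against Sel1l-/- 1 and 2, these differences were smaller. They were 0.17 for Clspn, 0.40 for Cdk6, -0.24 for Ccnd3 and -0.17 for Cdkn2c. With the code number as a block they changed little, with adjusted p-values of 0.217 to 0.352 for these 4 genes. None of the 4 passed when 1 array was left out. Cdkn1a, the p53-induced inhibitor, differed by 0.36 (adjusted p 0.586), Ccnd1, a growth factor-induced cyclin, by -0.11 (0.851), and Mybl2, a factor that turns on mitosis genes, by 0.23 (0.401). Foxm1 was not measured.

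Markers of the cells that the tissue can hold were read beside the division genes. Of 18 macrophage markers 17 had a higher mean in Sel1l-/-, with a median difference of 0.33, and 0 passed the threshold. Their mean was 9.64, 10.38, 9.65 and 10.48 in WT and 9.98, 10.43, 10.34 and 10.91 in Sel1l-/-. WT 4 was high, Sel1l-/- 1 low and Sel1l-/- 4 highest, as for the division genes. WT 1 and WT 3 had the lowest WT means in both, nearly level for the macrophage markers (9.64 and 9.65). For the division genes WT 3 (6.43) lay below WT 1 (6.64). WT 3 was the lowest WT array for 6 of the 18 markers (33.3%), against 40 of the 50 division genes and 27.8% of all genes. Within the letter F, with 1 WT mouse, their mean difference was -0.27. It was 0.08 without WT 3, a low WT array, and Sel1l-/- 4, the highest array. Itgax, which marks inflammatory macrophages of obese fat, was at 7.73, 9.30, 7.21 and 9.99 in WT and at 8.70, 9.54, 8.99 and 10.87 in Sel1l-/-. Its WT range, 6.87-fold, was the widest of the 18 markers, so it does not stand for the list. The part of macrophages in the division gene values was not tested.

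By list mean, Sel1l-/- 4 was not the highest of the 8 arrays in any other marker list. Some features were shared with the division genes. Lymphocyte means were lowest in WT 3 among WT (5.83) and in Sel1l-/- 1 among Sel1l-/- arrays (5.62). Progenitor means among Sel1l-/- arrays were lowest in Sel1l-/- 1 (9.81) and highest in Sel1l-/- 4 (10.06). The 15 lymphocyte markers had a median difference of -0.08, with Cd2 (-0.65) past the threshold, where 0.685% of all genes passed downward. All 12 endothelial markers had a lower mean in Sel1l-/-, by a median of -0.36, with Pecam1 (-0.39) past the threshold. In limma all 12 had an unadjusted p under 0.05 downward (7.85% of all genes). For 9 of the 12 each Sel1l-/- array was below every WT array (5.07% of all genes). The 13 progenitor markers had a median of -0.20, the 11 adipocyte markers of -0.11 and the 6 mesothelial markers of -0.37. Alas2, the 1 erythroid marker measured, differed by -0.72. The part of these cells was not tested either.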

How the data were processed

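The deposited values are log2 expression per probe set; the authors made them with RMA, per the submitters' processing notes, a method that subtracts background, equalizes the arrays' distributions and joins probes into probe sets. That they are log2 is taken from their range (1.72 to 13.9), and version and array annotation build are not given in the sources used here. Of 35556 probe sets 21218 carried 1 gene symbol, 1881 several and 12457 none, giving 18820 genes by the brightest single-gene probe set over all arrays. No values were missing, filtered or rescaled. Because RMA makes arrays alike, a change of most genes 1 way would not show.

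Groups were compared over all genes with limma 3.58.1 (lmFit and eBayes, prior degrees of freedom 2.60) in R 4.3.3. The tests were two-sided and Benjamini-Hochberg adjusted over all genes. The fit was tried on simulated data with independent noise for each gene, which does not cover members that move together. Counts and plots were made in Python 3.11.15 with pandas 2.3.3 and drawn by matplotlib 3.10.9. The members, gene lists and rule for named genes were chosen with earlier results of these data known. Per-array values are given for the 6 members with the smallest p in each list, any other member past the threshold, and Mki67, Top2a, Cdk1, Pcna and Mcm2. In the other cycle lists the 3 genes with the smallest p were named, and Cdkn1a, Ccnd1 and Mybl2.

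After group means were removed, mice with the same replicate number correlated over all genes at 0.518, 0.107, 0.363 and 0.524, and those of different numbers at -0.489 to 0.328. Each of the 4 was over 0.1, so the number was treated as a possible pairing, since no label says what it stands for. Some mice of different numbers correlated more closely (up to 0.328) than the second pair (0.107). Mice of the same replicate number shared neither code letter nor code number. Results with the replicate block and the pair differences thus rest on a pairing that is not established. Alternatives were other scalings, filters, priors and probe set rules, array weights, blocks by replicate number, code letter and code number, and leaving out arrays.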

Additional observations from a re-analysis of the deposited data

Results flagged for a closer look

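Of 126 groups of 4 arrays examined, 1 had an array far from the rest, and chance alone gives about 1 in 20. It was Mcm4 in WT 1, at 7.92, where the other WT arrays lay between 8.01 and 8.02.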

How the results depend on the processing

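With 4 arrays per group and members that move together, the counts rest on few mice. Over all genes 324 passed the threshold, against 566 with array weights, 124 with an ordinary test, 725 with the replicate block, 20 with the code letter and 11 with the code number as a block, 183 without WT 3 and Sel1l-/- 4, and 100 to 336 when 1 array was left out. The S phase count of 0 became 1 (Chek1) with array weights, with the replicate block and without WT 4 (range 0 to 1 over left-out arrays). The mitosis count of 1 (Anln) became 0 with centred arrays, the ordinary test, the code letter or code number block, and without WT 3 and Sel1l-/- 4, and was 0 to 1 over left-out arrays. With the replicate block, the count of 0 became 2 for the other division genes (Clspn and Ndc80) and 4 for the control genes. The control genes had 1 call with quantile normalization again or a trended robust prior, and 2 with the dimmer 50% of genes left out or with array weights. The cause was not tested.

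Under the code letter block the mean differences turned to -0.11 (S phase) and -0.29 (mitosis). So did Tk1 (-0.21), E2f8 (-0.30), Ncapg (-0.21), Pbk (-0.22), Aurkb (-0.08), Melk (-0.11), Cenpf (-0.21), Mki67 (-0.33), Top2a (-0.31), Cdk1 (-0.18), Pcna (-0.40), Mcm2 (-0.15), Ndc80 (-0.09) and Cdkn1a (-0.40). That block rests on WT 4 against Sel1l-/- 1 and 2 alone, as no other letter holds both genotypes. In both lists WT 4 had the highest WT mean, and Sel1l-/- 1 and 2 the lowest Sel1l-/- means. Pcna (-0.03) and Mcm2 (-0.06) also turned without WT 3 and Sel1l-/- 4, their lowest and highest arrays. Ccnd1 (0.01) turned without Sel1l-/- 3. Why these mice differed was not tested. Over left-out arrays the mean difference was 0.17 to 0.38 for S phase genes and 0.33 to 0.66 for mitosis genes, lowest without WT 3 and Sel1l-/- 4 respectively and highest without WT 4. The replicate block changed no other call of a named cell cycle gene.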
